A study of Mus musculus with 6 samples.

Results

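The genes described here are the 77 protein-coding genes in the count table whose names place them in solute carrier families 1, 3, 5, 6, 7, 36, 38 and 43, out of 54532 genes in all. They were taken by the start of their names, without measured values, but the families were chosen with earlier results of these data known. Most of these genes carry amino acids or organic osmolytes across membranes. Family 5 also holds sugar, iodide and vitamin carriers, family 6 also holds monoamine and creatine carriers, and Slc7a6os matches only because it is named for its place opposite Slc7a6 and encodes no carrier. The RNA came from RAW264.7 cells, a mouse macrophage line labelled WT, grown in DMEM with fetal bovine serum and collected by fluorescence-activated sorting. Cells grown alone (3 libraries, replicates A, B and C) were compared with RAW264.7 cells cocultured for 48 h with TTJ cells (3 libraries, replicates A, B and C). TTJ cells are Tsc2-null cells established from an angiomyolipoma, most often a kidney tumour, of a tuberous sclerosis complex mouse model, and the study asked how they affect macrophage polarization. Both groups are a single cell line, and no source used here names the markers of the sort.

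Total counts ran from 14329487 to 17358280 per library. A count of 0 over a whole group allows up to 3 counts, which corresponds to 0.0618 CPM alone and 0.0639 CPM in coculture (CPM is the count scaled by the library size). All 10 macrophage markers were tested, with 6 higher and 2 lower. Their summed level was 11558 to 11678 CPM alone and 12277 to 12618 CPM in coculture. The lower call of Cd68 was kept in 6 of 16 alternative analyses. The higher calls of Cd14 and Lyz2 were kept in 13 and 14 of them, in that order. Some markers of other cells moved with the groups. Of 15 renal and simple epithelial markers, 12 had no count in lone cells, 11 were tested and all 11 were higher in coculture. No marker of this list reached 1 CPM alone, so the 11 were tested only because of their cocultured counts and could only be higher. Of all genes tested, 21.7% were called higher and 15.2% lower. The summed level of the 15 was 0 to 0.115 CPM alone and 374 to 431 CPM in coculture, while Epcam, Lhx1 and Cldn7 had no count in coculture. Of 15 mesenchymal and smooth muscle markers, 13 were in the count table, 6 were tested and 5 were higher. This list summed to 996 to 1057 CPM alone and 1593 to 1659 CPM in coculture. Only Vim of this list reached 1 CPM alone. Col5a1, Cav1, Timp3 and Thbs1 had 0 or 1 count over the lone libraries. Tested only because of their cocultured counts, they could only be higher. Acta2 was tested and did not pass. In coculture Col1a1 had 3 counts, and Col1a2 and Cnn1 had 1 each. Tagln had 14 counts alone and 10 in coculture, Pdgfrb 27 and 23, and Fbn1 9 and 32. Col3a1 had no count in coculture, and most of the sum came from Vim, at 1015 CPM alone and 1528 CPM in coculture. Genes absent from all lone libraries that reached 10 counts over the cocultured ones together took 0.282 to 0.314% of the cocultured libraries' counts. The part of RNA from other cells in the differences below was not tested.

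Amino acid carriers fall into systems, some of which work in relay. Sodium-coupled carriers of families 1, 6 and 38 concentrate small neutral amino acids such as glutamine and alanine in the cell. Heteromeric exchangers are each a family 7 light chain bound to a family 3 heavy chain. Some of them then trade these small amino acids for large neutral ones that the cell cannot make. Others trade differently. Slc7a7 exports arginine and lysine in exchange for neutral amino acids, and Slc7a11 exchanges cystine and glutamate. Proton-coupled carriers of family 36 and some members of family 38 move amino acids out of lysosomes, where amino acid supply is read by mTORC1. A further set, made of Slc6a12, Slc6a6 and Slc5a3, brings in betaine, taurine and myo-inositol, small solutes that cells collect against water loss. NFAT5 is the transcription factor known to raise these osmolyte carriers in hypertonic medium through an element called TonE, and ATF4 is the factor known to raise many amino acid carriers when amino acids run short, through elements that include the CARE.

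Promoters are shown for 4 genes, 2 osmolyte carriers that were lower in coculture and 2 exchanger light chains of which 1 was higher and 1 did not pass the test. Each line holds the 250 bases before a RefSeq transcription start on GRCm38.p6, printed on the gene's strand. Capitals mark matches on either strand to TonE in Slc6a12 and to the CARE letters TGATGNAAN in Slc7a7 and Slc7a11. The Slc6a12 window (chr6:121342324-121342573, plus strand) belongs to 1 of 5 RefSeq starts and ends 502 bases from the nearest GENCODE start. The Slc5a3 window is chr16:92058072-92058321, plus strand. The Slc7a7 window (chr14:54417703-54417952, minus strand) belongs to 1 of 5 starts, and the Slc7a11 window is chr3:50443614-50443863, minus strand.
Slc6a12: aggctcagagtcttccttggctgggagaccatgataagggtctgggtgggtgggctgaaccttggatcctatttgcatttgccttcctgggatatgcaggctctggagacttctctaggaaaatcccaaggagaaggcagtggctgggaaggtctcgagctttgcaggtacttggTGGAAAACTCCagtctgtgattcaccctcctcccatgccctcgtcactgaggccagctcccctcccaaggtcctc
Slc5a3: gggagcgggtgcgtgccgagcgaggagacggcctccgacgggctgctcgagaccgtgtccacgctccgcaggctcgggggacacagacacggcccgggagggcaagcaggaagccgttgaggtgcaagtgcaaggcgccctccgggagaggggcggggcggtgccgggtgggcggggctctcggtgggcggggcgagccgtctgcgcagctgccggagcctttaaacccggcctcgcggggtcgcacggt
Slc7a7: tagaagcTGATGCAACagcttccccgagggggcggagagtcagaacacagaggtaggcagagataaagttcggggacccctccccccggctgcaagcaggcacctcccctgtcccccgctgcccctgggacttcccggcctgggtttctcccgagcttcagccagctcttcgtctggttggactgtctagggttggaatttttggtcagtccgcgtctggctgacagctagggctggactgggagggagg
Slc7a11: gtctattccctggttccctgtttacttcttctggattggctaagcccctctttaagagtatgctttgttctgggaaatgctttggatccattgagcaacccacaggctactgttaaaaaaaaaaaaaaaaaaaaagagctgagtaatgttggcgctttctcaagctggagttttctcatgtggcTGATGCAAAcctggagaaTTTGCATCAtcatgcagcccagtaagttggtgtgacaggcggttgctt

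The TonE match in Slc6a12 lay 65 to 75 bases before the start, and the other 4 Slc6a12 windows and the Slc5a3 window held neither set of letters. The CARE match in the printed Slc7a7 window lay 235 to 243 bases before the start. The Slc7a7 window at chr14:54417945-54418194 held the letters 133 to 141 bases before its start. The remaining Slc7a7 windows held no match, among them chr14:54417680-54417929, whose start is also a GENCODE start. Slc7a11, which encodes the cystine and glutamate exchanger, held the CARE letters on both strands. Across 32851 RefSeq windows of the same length, 4.31% held TonE and 3.44% held the CARE letters. The tested genes with an entry numbered 25, with 42 windows in all. TonE was in 4 of these windows, 1 each of Slc6a12, Slc6a13, Slc6a17 and Slc38a6, and the CARE letters were in 3 windows, of Slc7a7 and Slc7a11. These matches describe the letters only.

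Of the 77 genes, 33 had enough counts to be tested, and 44 did not. In coculture 8 of the 33 were higher and 11 were lower at an adjusted p under 0.05 in edgeR's quasi-likelihood test, adjusted over all 12972 genes tested. Of all those genes, 21.7% were called higher, 15.2% lower and 36.9% in either direction. The tested carriers numbered 24.2% higher and 33.3% lower, but 2 of those called higher were absent from lone cells and were tested only because of their cocultured counts. Among the 31 with at least 1 CPM alone, 6 (19.4%) were higher and 11 (35.5%) lower, beside 16.8% and 17.2% of all 11458 such genes. Their median log2 change was -0.09, beside -0.02 for all such genes. The labels do not say whether replicates were separate cultures, so p-values measure only how these libraries vary, which may be technical variation. In such bulk RNA, fewer expressing cells and less RNA per cell cannot be told apart.

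A difference of at least 2-fold was rare among the lower calls. It was met by 58 of all genes tested (0.447%), by 0.454% of those with at least 1 CPM alone, and by 2 carriers, Slc5a3 and Slc6a4. The higher calls reached it in 9.34% of all genes tested, and among the carriers only in Slc6a17 and Slc6a20a, the 2 with no count alone. The 3 cocultured libraries all lay below the 3 lone libraries for 11 carriers (21% of all genes tested) and all above them for 9 (26.1% of all genes tested).

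**Figure D1:**
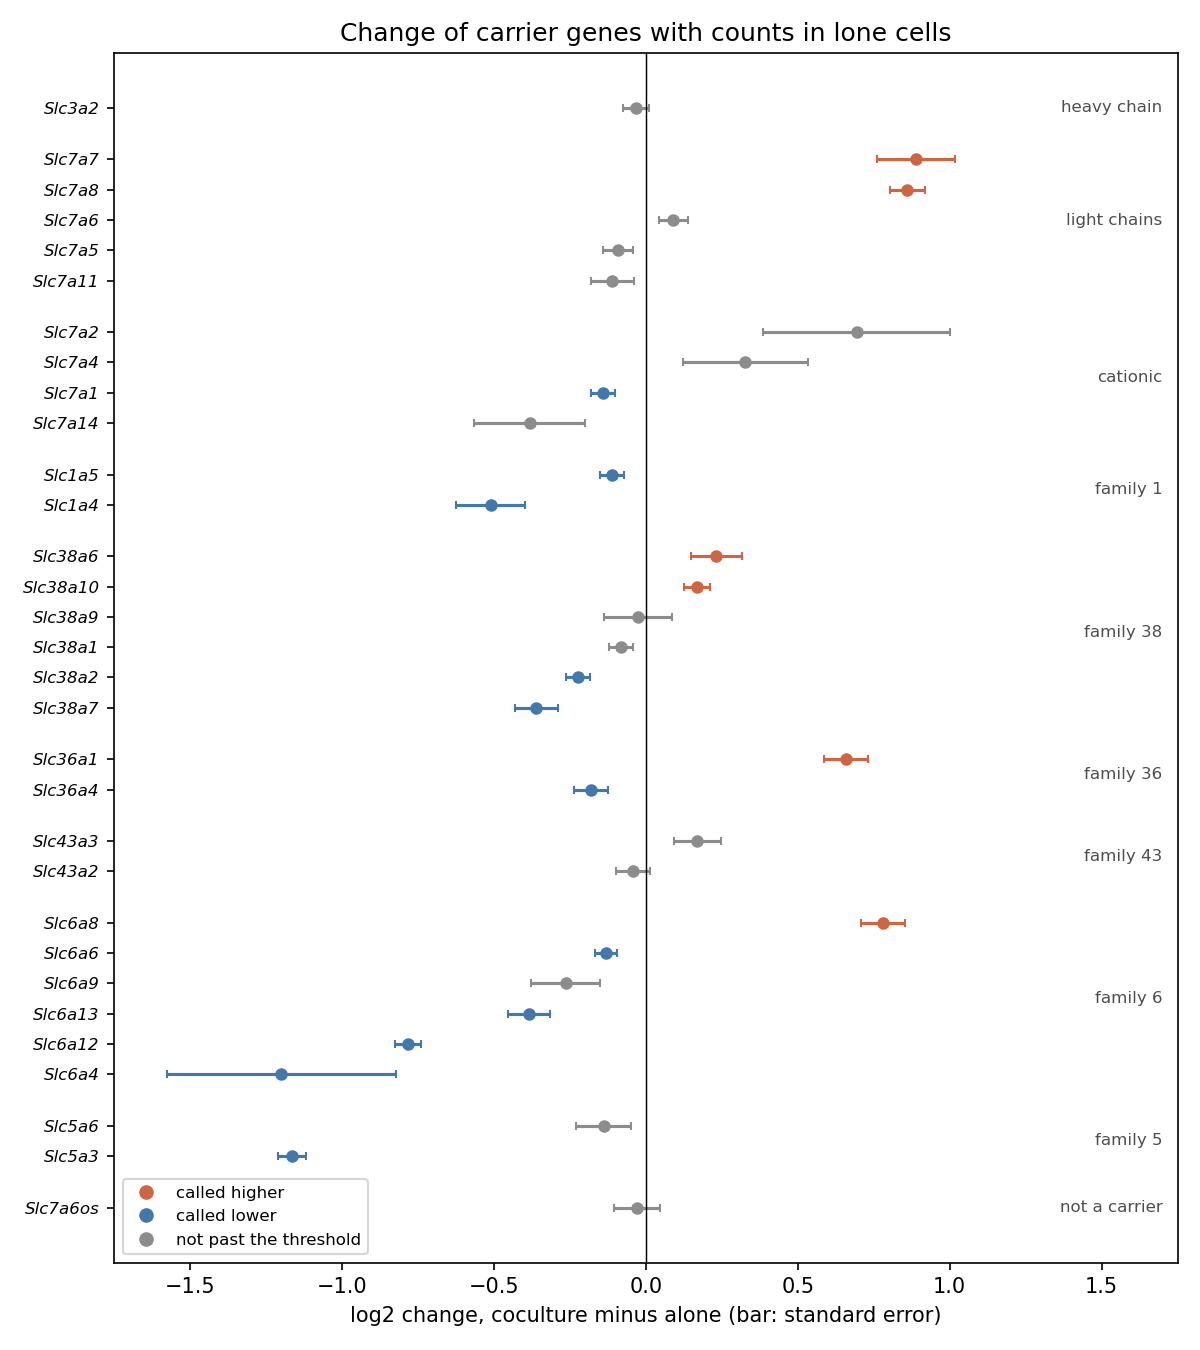
Log2 change in coculture against alone (horizontal axis) of the 31 tested genes with counts in lone cells, grouped by role and ordered by size within each (points, estimate; bars, SE; orange, called higher; blue, called lower; grey, not past an adjusted p of 0.05; 3 libraries per group). Slc5a3 and Slc6a4 lie lowest at -1.17 and -1.20, with a much wider bar for Slc6a4, and among the genes called higher Slc7a7, Slc7a8, Slc6a8 and Slc36a1 lie at 0.66 to 0.89, beside the uncalled Slc7a2 at 0.69.

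Levels between genes were compared per length, with the deposited FPKM values (the count scaled by gene length and library total). In lone cells the most abundant carrier was Slc6a12, the betaine and GABA carrier, at 143 ± 2.54 FPKM (SD, n = 3). It was followed by Slc1a5, the main glutamine exchanger of proliferating cells, at 113 ± 3.82 FPKM, and by the taurine carrier Slc6a6 at 98.3 ± 0.218 FPKM. Next came Slc7a5 at 83.3 ± 4.84 FPKM and its heavy chain Slc3a2 at 76.6 ± 2.13 FPKM. Slc38a2 followed at 75.9 ± 3.58 FPKM, and it and Slc3a2 differed by less than their spread. The 5 most abundant genes held 60.3 to 61.5% of the summed FPKM of all 77 in lone cells and 57.1 to 57.8% in coculture.

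The order changed at the top. In coculture Slc1a5 led at 105 ± 2.005 FPKM, Slc6a6 came at rank 2 with 89.7 ± 3.18 FPKM and Slc6a12 at rank 3 with 82.8 ± 3.87 FPKM, not far above Slc7a5 at 78.2 ± 4.57 FPKM. In coculture the intervals of 1 SD around Slc6a12 and Slc6a6, and around Slc6a12 and Slc7a5, overlap, so ranks 2 to 4 are not set apart by their spread. Slc5a3 went from rank 9, at 23.3 ± 0.420 FPKM, to rank 17, at 10.4 ± 0.493 FPKM, while Slc7a8 went from rank 17 to rank 11. The summed FPKM of all 77 genes was 830.997 to 857 alone and 738 to 758 in coculture, with no overlap. Family 6 summed to 264 to 270 FPKM alone and 196 to 207 FPKM in coculture.

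**Figure D2:**
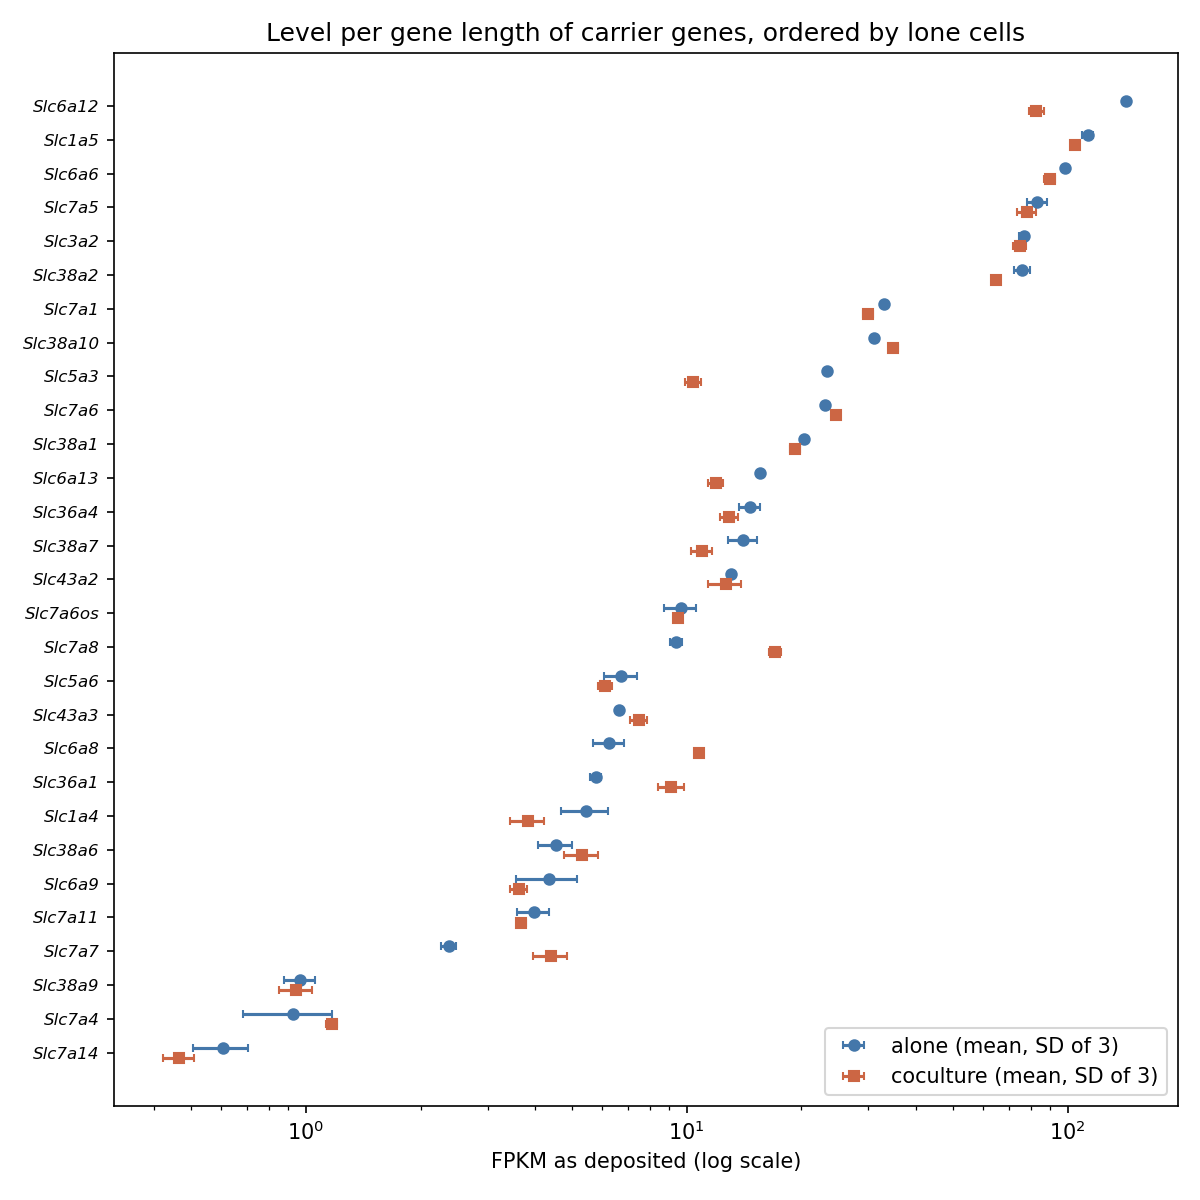
Mean FPKM as deposited (log axis) of genes with at least 0.5 FPKM in lone cells, ordered from top to bottom by that level (blue circles, alone; orange squares, coculture; bars, SD of 3 libraries). Slc6a12 is highest alone at 143 FPKM and at rank 3 in coculture at 82.8 FPKM. The cocultured point lies left of the lone point for Slc5a3 and right of it for Slc7a8.

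The main carriers of betaine (Slc6a12), taurine (Slc6a6) and myo-inositol (Slc5a3) fell in coculture, as did Slc6a13. They were grouped after their values were seen, and 15.2% of all genes tested were lower. Slc36a1 and Slc6a20a, described below, can also carry some of these solutes and were higher. The myo-inositol carrier Slc5a3 (chr16:92058322-92087473, plus strand, mm10) had 250, 256 and 259 CPM in the lone libraries and 111, 110 and 120 CPM in the cocultured libraries. The groups are far apart, and each is tight. The fall was 2.24-fold, from 255 ± 4.71 to 114 ± 5.45 CPM, a log2 change of -1.17 with an SE of 0.0469 and an edgeR adjusted p of 1.8e-16. The exons of Slc5a3 share 159 bases on the same strand with Mrps6, a mitochondrial ribosome gene, which was also lower, at 95.1 ± 5.58 CPM alone and 55.1 ± 4.74 CPM in coculture. No source used here says how reads in the shared stretch were assigned.

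Slc6a12 (chr6:121343076-121365775, plus strand) takes up betaine and GABA. Its lone libraries had 443, 428 and 437 CPM and its cocultured libraries 252, 242 and 266 CPM. Again every cocultured library lay well below every lone one. The fall was 1.72-fold, from 436 ± 7.27 to 253 ± 12.1 CPM, a log2 change of -0.78 with an SE of 0.0427 and an edgeR adjusted p of 7.43e-14. Its chromosomal neighbour Slc6a13 (chr6:121300227-121337733, plus strand), a carrier of GABA and taurine, had 45.3, 44.9 and 45.6 CPM alone and 32.9, 35.0 and 35.9 CPM in coculture. That fall was 1.31-fold, with a log2 change of -0.39, an SE of 0.0687 and an edgeR adjusted p of 6.42e-05.

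The taurine carrier Slc6a6 (chr6:91684053-91759066, plus strand) fell least of these. It had 831.99, 833.06 and 835.2 CPM alone and 730, 772 and 778 CPM in coculture, so the groups do not overlap. The fall was 1.10-fold, from 833.4 ± 1.64 to 760 ± 26.4 CPM, a log2 change of -0.13 with an SE of 0.0364 and an edgeR adjusted p of 0.00521. Slc5a11, which also carries myo-inositol, was too low to test, with 6 counts alone and 3 in coculture. Whether these carriers differ from one another in their fall was not tested.

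Genes of the response to hypertonic medium were read from the same fit. The list of 7 has 6 tested genes, of which 3 were lower, 2 higher and 1 did not pass. Of all genes tested, 15.2% were lower and 21.7% higher. Nfat5 itself, named after its values were seen, averaged 560 ± 17.1 CPM alone and 472 ± 21.2 CPM in coculture, a log2 change of -0.25 with an SE of 0.0410 and an edgeR adjusted p of 2.54e-05. Akr1b3, the aldose reductase that makes sorbitol, was at 417 ± 12.7 and 312 ± 9.59 CPM, a log2 change of -0.42. Hspa1b, an inducible heat shock protein, was at 7.96 ± 0.798 and 5.53 ± 0.0775 CPM, a log2 change of -0.53. Hspa4l, a co-chaperone that hypertonicity induces, moved the other way, from 65.9 ± 3.75 to 76.9 ± 6.02 CPM, with an adjusted p of 0.00654 that was 0.0575 without alone replicate B, 0.0553 without coculture replicate C and 0.0758 to 0.0804 in limma on FPKM. The water channel Aqp1, the other gene called higher, had no count alone and 68 counts in coculture. It was tested only because of the latter.

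**Figure D3:**
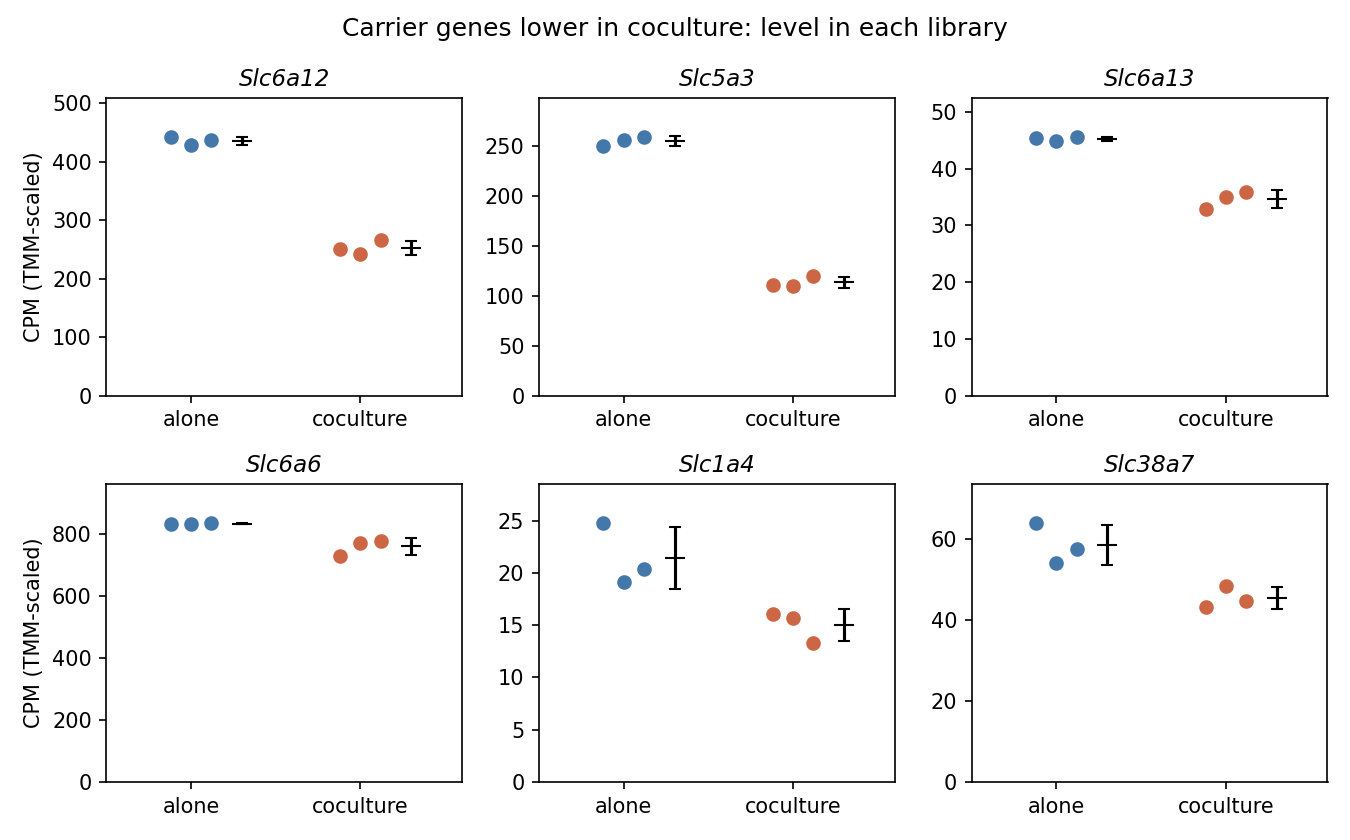
CPM (vertical axes, each from 0) in the 3 lone (blue) and 3 cocultured (orange) libraries of 6 genes lower in coculture (points, libraries A, B and C from left to right; black, mean ± SD). The lone and cocultured libraries of Slc5a3, at 250 to 259 and 110 to 120 CPM, lie furthest apart relative to their spread, and those of Slc6a6 are close.

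The rest of family 6 moved in both directions. The creatine carrier Slc6a8 (chrX:73673150-73682502, plus strand) had 29.2, 35.4 and 33.5 CPM alone and 57.7, 55.7 and 55.7 CPM in coculture. It rose 1.72-fold, from 32.7 ± 3.15 to 56.4 ± 1.17 CPM, with a log2 change of 0.78, an SE of 0.0725 and an edgeR adjusted p of 2.22e-09. The glycine carrier Slc6a9 did not pass, at 22.5 CPM alone and 18.6 CPM in coculture with an edgeR adjusted p of 0.0711. It passed with no filter (adjusted p 0.0415) and without alone replicate B (0.00357), and its exons share 1258 bases with Ccdc24 on the other strand. The serotonin carrier Slc6a4 was counted 26, 32 and 26 times in the lone libraries and 17, 7 and 11 times in the cocultured ones. It was lower with a log2 change of -1.20, an SE of 0.378 and an edgeR adjusted p of 0.0141. The call was lost without alone replicate B (log2 change -1.12, adjusted p 0.0582), coculture replicate B (-0.94, 0.0904) or coculture replicate C (-1.09, 0.0631), while the log2 change stayed between -1.65 and -0.94 with any 1 library left out.

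A pair of family 6 genes had no count in any lone library and enough in coculture to be tested. Slc6a17 (chr3:107467543-107518018, minus strand), a vesicular carrier of neutral amino acids known from neurons, had 164, 154 and 165 counts in coculture, or 10.3 ± 0.996 CPM. Against the 3 counts over the group that a count of 0 allows, it was at least 167-fold higher. Slc6a20a (chr9:123634770-123678885, minus strand), a proline carrier known from kidney and intestine, had 45, 53 and 31 counts, or 2.79 ± 0.842 CPM, at least 45.1-fold higher. Its near-identical copy Slc6a20b had 1 count in coculture, so reads of the 2 copies may be shared. It also overlaps an antisense gene over 415 bases and Ccr9 over 22 bases. Slc6a17 and Slc6a20a were grouped here because they had no count alone. They therefore share the pattern of the epithelial markers given above by selection, which says nothing of their source. Those markers summed to 0 to 0.115 CPM alone and 374 to 431 CPM in coculture. The part of RNA from other cells in Slc6a17 and Slc6a20a was not tested.

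Among the heteromeric exchangers, 2 light chains rose and the shared heavy chain did not pass the test. Slc7a8, which exchanges neutral amino acids (chr14:54722209-54781946, minus strand), had 48.4, 45.2 and 47.7 CPM alone and 82.7, 85.1 and 88.7 CPM in coculture. It rose 1.82-fold, from 47.1 ± 1.69 to 85.5 ± 3.01 CPM, with a log2 change of 0.86, an SE of 0.0586 and an edgeR adjusted p of 6.5e-12. Slc7a7, which exports arginine and lysine in exchange for neutral amino acids and is mutated in lysinuric protein intolerance, lies on the same chromosome (chr14:54369442-54417780, minus strand). It had 7.50, 7.97 and 8.18 CPM alone and 13.1, 14.6 and 16.2 CPM in coculture. The rise was 1.85-fold, with a log2 change of 0.89, an SE of 0.128 and an edgeR adjusted p of 3.58e-06. Its exons share 232 bases with Oxa1l on the other strand, which was lower in coculture, at 99.1 ± 5.90 CPM alone and 84.1 ± 0.491 CPM in coculture.

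The heavy chain Slc3a2, also known as CD98, had 276, 263 and 274 CPM alone and 259, 277 and 259 CPM in coculture. The groups overlap, with a log2 change of -0.03, an SE of 0.0434 and an edgeR adjusted p of 0.597. Its partner Slc7a5, the main leucine exchanger, had 328, 293 and 308 CPM alone and 294, 305 and 272 CPM in coculture, also overlapping, with an edgeR adjusted p of 0.143. Slc7a6, an exchanger of cationic and neutral amino acids, had 104, 107 and 106 CPM alone and 113, 112 and 112 CPM in coculture. Its groups do not overlap, but the log2 change of 0.09 with an SE of 0.0470 did not pass at an adjusted p of 0.14. Slc7a11 had means of 55.3 and 51.3 CPM, in that order, with an edgeR adjusted p of 0.23. The other heavy chain, Slc3a1, had 6 counts alone and 1 in coculture.

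**Figure D4:**
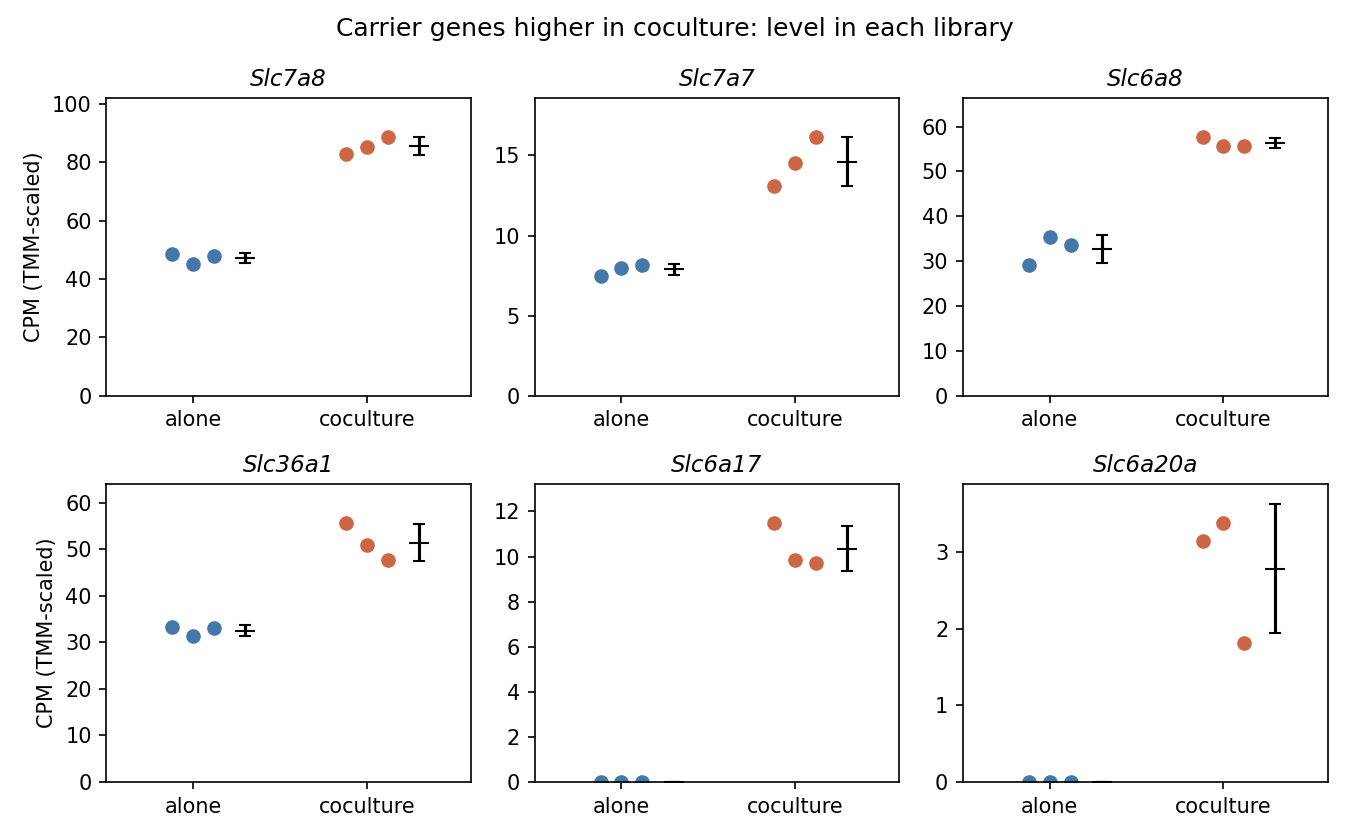
CPM (vertical axes, each from 0) in the 3 lone (blue) and 3 cocultured (orange) libraries of 6 genes higher in coculture (points, libraries A, B and C from left to right; black, mean ± SD). The cocultured libraries of Slc7a8, at 82.7 to 88.7 CPM, lie above the lone ones at 45.2 to 48.4 CPM, and Slc6a17 has no count in any lone library.

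Of the carriers for cationic amino acids, Slc7a1, the widespread arginine and lysine carrier, was the abundant one. It had 385, 373 and 385 CPM alone and 336, 356 and 345 CPM in coculture. The groups do not overlap, and the fall was small, with a log2 change of -0.14, an SE of 0.0403 and an edgeR adjusted p of 0.00715. Slc7a2, the arginine carrier known to be induced in activated macrophages, averaged 1.46 CPM alone and 2.37 CPM in coculture, with a log2 change of 0.69 and an adjusted p of 0.0816, or 0.0364 without alone replicate C. Slc7a4 and Slc7a14, relatives of less settled function, did not pass either, at 3.85 and 5.95 CPM alone and 4.87 and 4.57 CPM in coculture. Slc7a3 was below the filter, with 16 counts alone and 33 in coculture.

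Both tested members of family 1 fell. Slc1a4, a carrier of alanine, serine and cysteine, had 24.8, 19.1 and 20.4 CPM alone and 16.1, 15.7 and 13.3 CPM in coculture. The groups do not overlap, and the fall was 1.43-fold, with a log2 change of -0.51, an SE of 0.113 and an edgeR adjusted p of 0.000779. Slc1a5 had 491, 463 and 465 CPM alone and 430, 445 and 437 CPM in coculture, a log2 change of -0.11 with an SE of 0.0393 and an edgeR adjusted p of 0.0261. This small difference lost its call without alone replicate A (adjusted p 0.113), coculture replicate A (0.084) or coculture replicate C (0.0716). It also lost it among genes with at least 1 CPM alone (0.0651) and in limma on log2(FPKM + 1) with a mean FPKM of at least 1 (0.0558). The glutamate carriers of the family were at or near 0 counts.

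In family 38, the sodium-coupled neutral carriers, 2 of 6 tested genes fell and 2 rose. Slc38a2, the carrier of glutamine and alanine that amino acid starvation and hypertonicity are known to raise, had 641, 672 and 705 CPM alone and 574, 571 and 582 CPM in coculture. The fall was 1.17-fold, with a log2 change of -0.22, an SE of 0.0392 and an edgeR adjusted p of 5.03e-05. Slc38a7, a lysosomal glutamine exporter, had 63.9, 54.0 and 57.5 CPM alone and 43.1, 48.4 and 44.7 CPM in coculture, a 1.28-fold fall with an edgeR adjusted p of 0.000196. Slc38a1, a close relative of Slc38a2, had 354, 347 and 354 CPM alone and 327, 344 and 326 CPM in coculture. It lay lower in every cocultured library, but its log2 change of -0.08 did not pass at an adjusted p of 0.118.

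The rises in family 38 were small. Slc38a10 had 201, 200 and 198 CPM alone and 217, 229 and 227 CPM in coculture, a log2 change of 0.17 with an SE of 0.0430 and an edgeR adjusted p of 0.00293. Slc38a6 averaged 35.3 ± 3.61 CPM alone and 41.4 ± 4.32 CPM in coculture, with overlapping groups and an edgeR adjusted p of 0.0325. It did not pass in DESeq2 (adjusted p 0.0525), in limma on FPKM (0.153 to 0.154), or without alone replicate B (0.0736), alone replicate C (0.176), coculture replicate A (0.0655) or coculture replicate C (0.225). Slc38a9, the lysosomal arginine sensor upstream of mTORC1, averaged 16.2 CPM alone and 15.8 CPM in coculture, with an edgeR adjusted p of 0.882.

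The tested members of family 36, proton-coupled carriers found on lysosomes among other membranes, moved apart. Slc36a1 (chr11:55204350-55236330, plus strand) had 33.3, 31.2 and 33.0 CPM alone and 55.6, 50.8 and 47.7 CPM in coculture. The groups do not overlap. It rose 1.58-fold, from 32.5 ± 1.11 to 51.4 ± 3.999 CPM, with a log2 change of 0.66, an SE of 0.0726 and an edgeR adjusted p of 4.87e-08. Slc36a4 had 88.7, 100 and 99.1 CPM alone and 81.6, 82.8 and 89.8 CPM in coculture, overlapping, with a log2 change of -0.18 and an edgeR adjusted p of 0.0141. That call was lost without alone replicate B (adjusted p 0.0775), alone replicate C (0.0586) or coculture replicate A (0.0717), and in limma on FPKM (0.0725 to 0.0799).

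The remaining tested genes did not pass. In family 43, the large neutral amino acid uniporter Slc43a2 had 134, 130 and 130 CPM alone and 126, 115 and 141 CPM in coculture, with an edgeR adjusted p of 0.609. Slc43a3, which carries nucleobases, averaged 29.7 CPM alone and 33.5 CPM in coculture, with an edgeR adjusted p of 0.0868. Slc5a6, the vitamin carrier for biotin and pantothenate, averaged 26.9 CPM alone and 24.4 CPM in coculture. Slc7a6os was at 40.9 and 40.1 CPM.

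No count in any of the 3 lone libraries was found for 30 of the 77 genes. Of these, 11 had counts in coculture. Besides Slc6a17 with 483 counts and Slc6a20a with 129, all were near the limit. Slc6a14 had 7 counts over the 3 cocultured libraries, Slc6a19 had 6, Slc1a6 and Slc7a13 had 4 each, Slc5a1 had 3, Slc6a3 had 2, and Slc6a15, Slc6a20b and Slc7a15 had 1 each. The other 19 had no count in any library. They include Slc1a3 and Slc1a7 of the glutamate carriers, Slc38a4, Slc38a5 and Slc38a8, Slc5a12, Slc5a4a, Slc5a7 and Slc5a9, Slc6a11, the noradrenaline carrier Slc6a2, the glycine carrier Slc6a5, Slc6a7, Slc6a16 and Slc6a18, and the exchanger light chains Slc7a9, Slc7a10 and Slc7a12. Family 6 supplied 14 of the 30, and families 5 and 7 supplied 5 each. These counts of 0 allow up to 0.0618 CPM in lone cells.

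A further 16 genes below the filter had counts in lone cells. For 5 of them, Slc1a1, Slc36a2, Slc38a11, Slc5a2 and Slc6a21, this was 1 count over the 3 lone libraries, with none in coculture. Slc1a2, the glial glutamate carrier, had 1 count over the lone libraries and 0, 3 and 11 counts in the cocultured ones, so most of its counts came from replicate C. Slc5a5, the iodide carrier, had 4 counts alone and 40 in coculture. The rest had 1 to 10 counts alone and 1 to 9 in coculture, apart from Slc7a3 given above.

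The ATF4 programme, which includes targets among the carriers, was read from the same fit. Of 16 genes on the list, all tested and all with at least 1 CPM alone, 8 were lower and 4 higher. Their median log2 change was -0.20. Of all genes tested with at least 1 CPM alone, 17.2% were lower and 16.8% higher, with a median log2 change of -0.02. Asns, which makes asparagine, averaged 205 ± 20.6 CPM alone and 131 ± 4.79 CPM in coculture, a log2 change of -0.64. Pycr1, the last step of proline synthesis, was at 6.74 ± 1.28 and 4.28 ± 0.798 CPM, a log2 change of -0.66 whose adjusted p of 0.00828 became 0.0624 without alone replicate C, 0.0613 without coculture replicate C and 0.0592 in limma on log2(FPKM + 1) with a mean FPKM of at least 1. Atf4 itself, named after its values were seen, had 321 ± 9.17 and 236 ± 6.15 CPM, a log2 change of -0.45 with an SE of 0.0424 and an edgeR adjusted p of 3.5e-09. Ddit3, a stress-induced factor on the same list, moved the other way, from 18.2 ± 0.718 to 26.1 ± 2.10 CPM.

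Amino acid carriers outside these families gave 3 higher and 4 lower of 14 tested genes, out of 20 on that list in the table, with a median log2 change of -0.02. The shares of all genes tested were 21.7% higher and 15.2% lower. The lysosomal peptide and histidine carrier Slc15a3 rose 2.32-fold, from 50.6 ± 2.78 to 117 ± 2.11 CPM, with a log2 change of 1.22, an SE of 0.0549 and an edgeR adjusted p of 1.68e-15. Slc25a38, the mitochondrial glycine carrier, was lower, at 38.7 ± 3.32 and 31.8 ± 0.933 CPM. The peptide carrier Slc15a2, among the 3 called higher, had no count alone and 60 counts in coculture. It was tested only because of the latter.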

How the data were processed

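Messenger RNA was selected with poly-T beads and sequenced as paired reads, per the labels' protocols. Tools listed in the submitters' processing notes, with no roles, are featureCounts 1.5.0-p3, HISAT2 2.0.5, edgeR 3.22.5 and DESeq2 1.20.0, and mm10 is the build listed there. No source used here gives the strand setting, and reads of overlapping or antisense genes cannot be told apart. The authors deposited raw counts per gene and FPKM values of the same 6 libraries, per the file headers. The median ratio of deposited FPKM to the value recomputed from counts and gene lengths was 0.9955 to 1.004 per library. Libraries of the same group differed beyond sampling noise (chi-square per degree of freedom 2.98 to 4.57), and none were merged.

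Counts were tested with edgeR 4.0.16 in R 4.3.3 (quasi-likelihood F test, TMM scaling, filterByExpr by group, 1 group term, two-sided), with Benjamini-Hochberg adjustment over 12972 genes. SE was derived as |log2 change| divided by √F. CPM uses TMM-scaled library sizes. Values are means ± SD over 3 libraries. Alternatives were other scalings and filters, DESeq2 1.42.0, limma 3.58.1 on log2(FPKM + 1) and log2(FPKM + 0.1), the replicate letter as a block, and each library left out. Folds against 0 counts use 3 counts over the group, and bounds cover counting error only. The procedure was tested on simulated data.

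The genes and lists were chosen with earlier results of these data known. Full values are given for called genes that reach 1 CPM in the higher group, for genes absent alone that reach 10 counts in coculture, and for the 5 most abundant others. Up to 3 genes of each companion list are named by size of change, and others as stated. Hspa4l was named after its values were seen. Exons were compared with GENCODE M21, and promoters come from RefSeq on GRCm38.p6, with 25 of 33 tested genes matched. Of the set, 1 gene that is counted in the totals is not reported by name here.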

Additional observations from a re-analysis of the deposited data

How the results depend on the processing

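Across the alternatives, the carriers called higher numbered 5 to 9 and those called lower 8 to 12. Of the 8 called higher, 7 kept the call in every alternative that gave a value, with Slc38a6 the exception. The 7 include Slc6a17 and Slc6a20a, which had no count alone and were tested only because of their cocultured counts. That these 2 kept the call therefore says little. Of the 11 called lower, 8 kept the call in every alternative that gave a value, with Slc1a5, Slc36a4 and Slc6a4 the exceptions. With limma on log2(FPKM + 1) and a mean FPKM of at least 1, 1707 genes and 5 carriers were called higher, where fewer genes were tested. Leaving out each library in turn gave a log2 change of -0.11 to 0.0456 for Slc38a9, -0.12 to 0.0198 for Slc43a2 and -0.10 to 0.0222 for Slc7a6os, none of them called. For Slc5a3 all alternatives lay between -1.20 and -1.09. The labels name no shared batch for the letters A, B and C. Deviations of same-lettered libraries correlated at 0.00339, 0.0214 and 0.0392, and those of differently lettered ones at -0.0344 to 0.0138. With 3 libraries per group, these values cannot decide whether the letters pair the libraries. With the letter as a replicate block, the same 8 carriers were called higher and the same 11 lower, and of all genes 2815 were higher and 1951 lower. The cause of the lost calls was not tested. At this depth, 3 counts over a group correspond to 0.0618 CPM alone and 0.0639 CPM in coculture, and lower levels were not detectable.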
